A study of Mus musculus with 27 samples.

Results

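The clustered protocadherins are 57 cell surface genes that lie next to each other on mouse chromosome 18 in the alpha, beta and gamma clusters. They were taken from a table of 30735 genes as every gene whose name starts with Pcdha, Pcdhb or Pcdhg and that has a protein-coding transcript. The alpha cluster gave 14 genes, the beta cluster 22 and the gamma cluster 21. All lie on the plus strand of GRCm38, alpha at 36930184 to 37187661, beta at 37264938 to 37524479 and gamma at 37661793 to 37841873. For 44 genes the deposited name was in mouse spelling, and 13 genes stood under 5 names in capitals, several genes to a name, and were told apart by their Ensembl identifiers. The most reads in any library for Pcdhgb8, which has no protein-coding transcript in the table and is not a member, were 563 estimated counts.

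Clustered protocadherins are cadherin-type adhesion proteins that bind to their own kind on neighbouring membranes, and a neuron that carries a particular set of them can tell its own branches from those of other neurons. Each variable exon has its own promoter, and contacts held by CTCF and cohesin between a promoter and a distal enhancer decide which isoforms a cell makes. In the alpha and gamma clusters every variable exon is spliced to constant exons that encode a shared cytoplasmic end, whereas the beta genes are single-exon genes without that end. The last members of the alpha and gamma clusters, Pcdhac1, Pcdhac2, Pcdhgc3, Pcdhgc4 and Pcdhgc5, are called C-type isoforms and are regulated apart from the alternate isoforms. In the retina the gamma cluster is known for self-avoidance of starburst amacrine cells and for the survival of retinal neurons.

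The study profiled retinal ganglion cells (RGCs), the neurons that send the retina's output to the brain, and the brain areas that receive it, by RNA-seq of 27 libraries from C57Bl/6 mice. Retinal cells came from animals with an alkaline phosphatase (AP) reporter knocked in at the Brn3a locus (Pou4f1) or the Brn3b locus (Pou4f2), 2 transcription factor genes of RGCs. The AP-positive cells were pulled from dissociated retina with beads carrying an antibody to AP, and the cells left behind form the supernatant (SN). HET means AP/WT, with a wild-type second allele, and KO means AP/KO, with no functional copy, so that every retinal library carries an AP allele and none is wild type.

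At postnatal day 3 (P3) the AP-positive cells of both lines gave 2 libraries for each genotype, HET and KO, and at embryonic day 15 (E15) those of the Brn3b line did the same. Each of these 6 groups had 1 SN library, so SN libraries were pooled by age into groups, 4 at P3 and 2 at E15. The brain libraries were wild type, P3, from animals whose eyes had received a fluorescent cholera toxin tracer: 3 of the superior colliculus (SC), 3 of the lateral geniculate nucleus (LGN), 1 of the pretectal area (PTA) and 2 of the remaining brain. AP marks the cells in which the Brn3a or Brn3b locus is active, whatever their type, and the brain pieces are whole tissue. Nothing in the labels says that libraries of a group came from separate animals, so each p measures the spread between libraries, which may be technical.

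Total estimated counts ranged from 28905675 to 37394655 in the retinal and from 10122962 to 13769685 in the brain libraries. The source entry of all 12 retinal libraries titled Brn3b names Brn3a and that of all 6 titled E15 names post-natal day 3, and the genotype entry of Brn3a KO library 2 names Brn3b; titles were used. Pou4f1 had 486 and 444 CPM (counts scaled to the library's total) in Brn3a HET and at 16.7 and 11 in Brn3a KO. In the Brn3b line at P3, HET libraries had 190 and 289 CPM of Pou4f2 and KO libraries 21.0 and 18.6, against 325 and 224 and 65.7 and 63.1 CPM at E15. Both genes therefore followed the genotypes in the titles. The age in the titles was not checked by them, and Pou4f2 in Brn3b HET overlapped between P3 and E15. The summed level of 18 RGC markers was 1999 to 11301 CPM in the AP-positive and 1003 to 1780 CPM in the SN libraries at P3, so the AP-positive Brn3b KO cells at P3, with the 2 lowest sums of the AP-positive libraries (1999 and 2302 CPM), lay closest to SN.

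Levels of different genes were compared per transcript length, as TPM (counts divided by length and scaled to a fixed total). In the retina the gamma cluster had the highest mean sum, 194 ± 55.9 TPM (SD, n = 18), ahead of beta with 123 ± 43.3 and alpha with 104 ± 94.9. The alpha sum had the widest range across retinal libraries, 18.5 to 285 TPM. In the brain the gamma sum was 446 ± 63.0 TPM (SD, n = 9), alpha 184 ± 51.8 and beta 110 ± 15.4. Retinal and brain libraries differ in read length and layout and were not compared by a test.

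The C-type genes Pcdhac2, Pcdhgc3 and Pcdhgc4 led the alpha and gamma clusters in both tissues. Pcdhgc3, whose cytoplasmic end binds the Wnt regulator Axin1, had the highest mean of the 57 genes, with 43.8 TPM in retina and 123 TPM in brain. Pcdhgc4, the isoform tied to neuronal survival, followed in the gamma cluster with 25.8 and 103 TPM, and the alternate isoform Pcdhga11 came next with 16.0 and 26.7 TPM. In the alpha cluster Pcdhac2, known for the spacing of serotonergic axons, stood at 24.7 TPM in retina and 50.6 TPM in brain, ahead of the alternate isoforms Pcdha4 (9.70 and 16.4 TPM), Pcdha2 (8.89 TPM in retina) and Pcdha5 (14.7 TPM in brain). The beta genes lay close together, led by Pcdhb17 (13.1 TPM), Pcdhb7 (9.45 TPM) and Pcdhb20 (8.95 TPM) in retina and by Pcdhb20 (10.4 TPM), Pcdhb9 (10.1 TPM) and Pcdhb7 (9.45 TPM) in brain. Pcdhgc5 stood far below its C-type neighbours, at 1.57 TPM in retina and 7.20 TPM in brain. The C-type gene Pcdhac1, at 4.86 TPM in retina and 7.32 TPM in brain, stood below the alternate isoform Pcdha4. Pcdhb1 was the single member too low to test, with at most 0.517 CPM, so 56 of the 57 genes entered each test.

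The shared exons limit how far members can be told apart. Of the stretches of 76 bases in an alpha gene's transcripts, the retinal read length, 48.0% to 59.9% (median 57.4%) also occurred in another member, against 40.9% to 51.5% (median 44.4%) in the gamma cluster and 0% to 8.86% (median 1.18%) in the beta cluster. The submitters' counting program split such reads between members by estimate, so values of single alpha and gamma genes are uncertain and can move together. A cluster's CPM sum does not depend on how reads were split between its members, though it can depend on reads given to genes outside the cluster or left unassigned, and TPM sums also depend on the split. In what follows a gene's level is in CPM, a gene is said to have risen or fallen where the adjusted p was under 0.05 in edgeR's quasi-likelihood test with Benjamini-Hochberg adjustment over all genes tested, and the value after ± is the standard error of the log2 fold change.

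**Figure D1:**
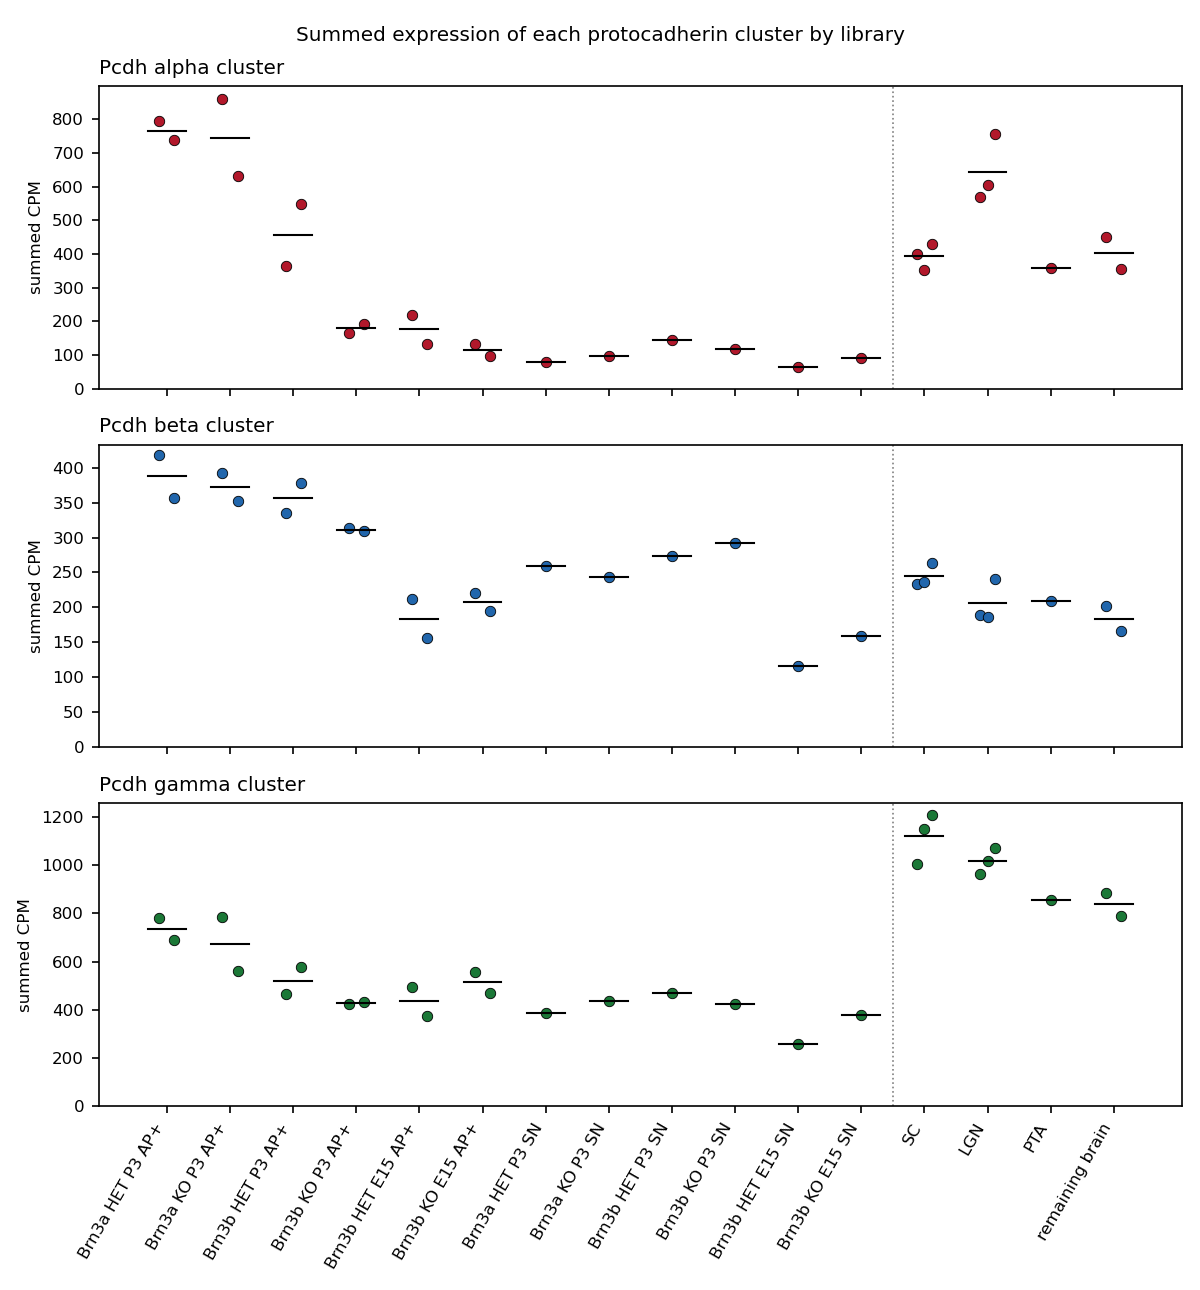
Summed level of each cluster (CPM, y axis) in every library, by group (x axis); points are libraries, black bars are group means and the dotted line separates retina from brain. The alpha sum reached 630 to 859 CPM in the 4 Brn3a AP-positive libraries at P3 and lay between 64.2 and 143 CPM in the 6 SN libraries.

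AP-positive cells at P3 carried much more alpha protocadherin RNA than the cells left in the supernatant. The alpha sum was 166 to 859 CPM in the 8 AP-positive libraries and 77.8 to 143 CPM in the 4 SN libraries, without overlap, a 4.94-fold ratio of means. The beta sum was 309 to 418 against 243 to 293 CPM (1.34-fold, no overlap) and the gamma sum 425 to 787 against 388 to 468 CPM (1.38-fold, with overlap). Set against the SN library of its own genotype, the alpha sum was 9.85-fold higher in Brn3a HET, 7.80-fold in Brn3a KO, 3.19-fold in Brn3b HET and 1.52-fold in Brn3b KO, each ratio resting on 1 SN library.

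By single genes, 13 of 14 alpha genes rose and none fell, with a median log2 fold change of 2.05. In the beta cluster 7 of 21 tested genes rose and none fell (median 0.35), and in the gamma cluster 11 of 21 rose and 1 fell (median 0.44). Over all genes tested, 27.3% were called higher and 27.7% lower, with a median of -0.03. All 13 alpha calls were kept when any of the 12 libraries in this comparison was left out. They rest in part on the Brn3a line: in a fit of the 12 Brn3b libraries alone, an alternative chosen after seeing the data, 6 alpha genes rose (median 1.01), no beta (median 0.24) or gamma gene (median 0.14) passed, and 6.85% of all genes were called higher and 4.28% lower.

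Pcdhac2 stood at 54.0 to 244 CPM in AP-positive cells (median 165) and at 19.2, 23.2, 38.3 and 32.6 CPM in SN, a log2 fold change of 2.2 ± 0.25 (adjusted p = 6.17e-06). The groups did not overlap, and the AP-positive libraries nearest to SN were both Brn3b KO. Pcdhac1, the other alpha C-type gene, stood at 6.79 to 51.2 CPM (median 29.0) against 3.24, 3.91, 6.50 and 4.17 CPM (2.34 ± 0.31, adjusted p = 2.25e-05), also without overlap.

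The alternate alpha genes rose by like amounts. Pcdha5 stood at 9.85 to 53.9 CPM (median 31.8) against 3.95, 4.25, 5.55 and 5.60 CPM in SN (2.48 ± 0.28, adjusted p = 7.71e-06). Pcdha12 stood at 8.76 to 53.8 CPM (median 28.2) against 4.12, 5.93, 7.72 and 7.16 CPM (2.02 ± 0.21, adjusted p = 4.14e-06). Neither gene overlapped between the groups. Pcdha3 (2.35 ± 0.28, adjusted p = 1.16e-05) ranged from 10.9 to 67.6 CPM against 3.35 to 11.2 CPM, and Pcdha7 (1.74 ± 0.18, adjusted p = 2.86e-06) from 12.2 to 65.4 CPM against 7.98 to 14.0 CPM. For these 2 genes the lowest AP-positive library, a Brn3b KO, lay within the SN range.

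**Figure D2:**
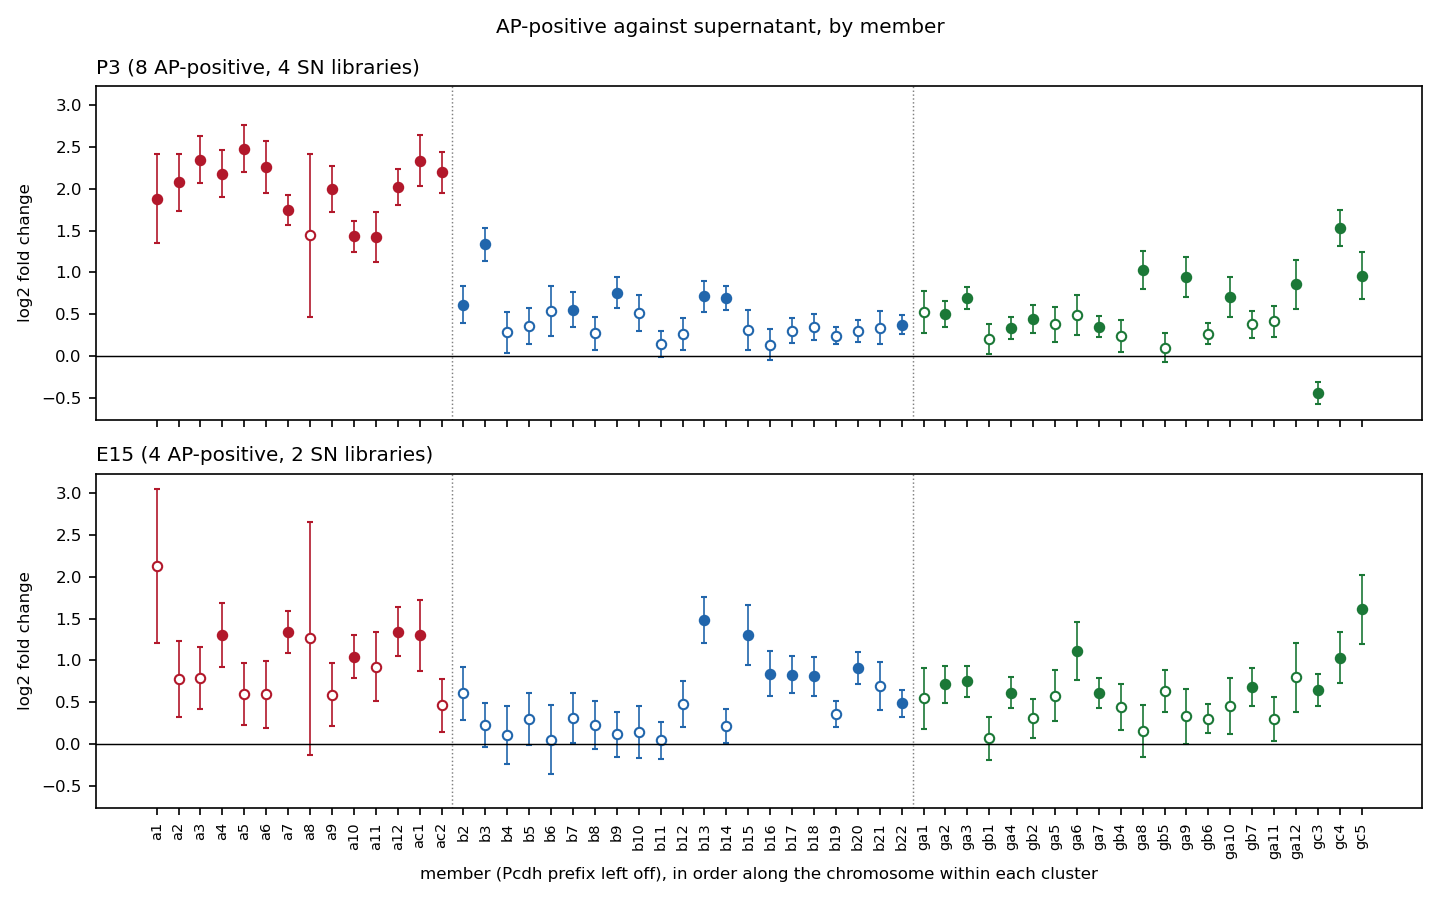
Log2 fold change of AP-positive over SN cells for each tested gene at P3 and E15 (error bars are standard errors); filled points passed an adjusted p of 0.05, and dotted lines separate the clusters. At P3 the 14 alpha genes lie between 1.43 and 2.48, above nearly all beta and gamma genes.

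In the beta and gamma clusters a few genes stood out from small shifts. Pcdhb3 rose most among beta genes, from 4.26, 4.65, 6.34 and 6.76 CPM in SN to 7.82 to 19.5 CPM (median 15.3) in AP-positive cells (1.34 ± 0.20, adjusted p = 6.47e-05), without overlap. Pcdhgc4 rose most among gamma genes, from 27.7, 38.8, 39.3 and 33.8 CPM to 36.0 to 188 CPM (median 122; 1.54 ± 0.21, adjusted p = 4.03e-05), and only the Brn3b KO library at 36.0 CPM lay within the SN range. Pcdhgc3 went the other way, 68.8 to 153 CPM (median 97.5) against 118, 134, 152 and 145 CPM, and fell by 0.45 ± 0.13 (adjusted p = 0.0103), with overlap. It was the only one of the 56 tested genes to fall, and in the Brn3b line alone it did not pass (-0.27, adjusted p = 0.366).

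Of the other genes named by rank, the beta genes Pcdhb9, Pcdhb14 and Pcdhb13 rose by log2 values of 0.75, 0.69 and 0.71, and Pcdhb7 by 0.55 (adjusted p = 0.0378). The gamma genes Pcdhga3, Pcdhga8, Pcdhga9 and Pcdhga2 rose by 0.69, 1.03, 0.95 and 0.50, and Pcdhgc5 by 0.96 (adjusted p = 0.00927). Among these, Pcdhga3 alone did not overlap, with 18.6 to 41.4 CPM (median 23.9) against 14.6 to 17.4 CPM in SN.

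Markers of other cells moved with this comparison. Of 18 RGC markers all rose (median log2 2.25), as did all 14 microglia and macrophage markers (median 7.92), whose summed level was 977 to 3883 CPM in AP-positive and 8.45 to 26.3 CPM in SN libraries. All 16 progenitor and Mueller glia markers fell (median -2.27; 800 to 2838 against 3343 to 4381 CPM), and 10 of 12 amacrine markers fell with none rising. Their part in the protocadherin differences was not tested. In these bulk samples more cells of a type cannot be told apart from more RNA per cell.

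At E15 fewer members were called, all of them higher in AP-positive cells. The alpha sum was 218, 134, 133 and 97.7 CPM in AP-positive cells and 64.2 and 90.8 CPM in SN, a 1.88-fold ratio without overlap. Beta (1.43-fold) and gamma (1.49-fold) sums overlapped. All 56 tested genes had positive log2 fold changes, and 5 of 14 alpha genes (median 0.98), 7 of 21 beta genes (median 0.36) and 9 of 21 gamma genes (median 0.61) rose, with none falling, against 13.4% of all genes called higher and 13% lower (median -0.01).

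These calls hung on individual libraries. Without the SN library of Brn3b HET none of the 56 genes was called, while the genes called over the whole table went from 2267 higher and 2200 lower to 586 and 100. That library had the lowest sum of all 3 clusters among the retinal libraries. Without AP-positive library 1 of Brn3b HET the members called were 8, and without library 1 of Brn3b KO 9, of 21 in the full fit.

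Pcdha7 had the smallest adjusted p at E15, with 21.4, 16.4, 12 and 14.7 CPM against 5.36 and 7.20 CPM (1.34 ± 0.25, adjusted p = 0.0027), and did not overlap. Pcdha12 (1.34 ± 0.29), Pcdha10 (1.05 ± 0.26), Pcdha4 (1.31 ± 0.38) and Pcdhac1 (1.3 ± 0.42) were the other alpha genes that rose. Pcdhac2 stood at 37.6, 26.2, 27.5 and 14.5 CPM against 14.9 and 22.7 CPM (0.46 ± 0.32, adjusted p = 0.303), with overlap. Among beta genes Pcdhb13, Pcdhb15, Pcdhb20 and Pcdhb17 rose by 1.48, 1.31, 0.91 and 0.83. Among gamma genes all 3 C-type genes rose, Pcdhgc5 by 1.61 ± 0.41, Pcdhgc4 by 1.03 ± 0.30 and Pcdhgc3 by 0.64 ± 0.20, beside Pcdhga3 (0.75), Pcdhga2 (0.71), Pcdhga7 (0.61) and Pcdhga4 (0.61).

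RGC markers rose at E15 too (10 of 18, none fell; 8128 to 13728 CPM against 3053 and 4396), and all 14 microglia markers rose (658 to 952 CPM against 9.05 and 9.71, with Trem2 and Lyz2 at 0 in both SN libraries). Of 16 progenitor markers 9 fell. Their part was not tested here either.

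Between the pooled ages the difference between AP-positive and SN cells itself differed for 7 genes, a result that was not seen in the Brn3b line alone. In the pooled fit it was larger at P3 for 5 alpha genes and Pcdhb3 and smaller for Pcdhgc3, while 9.74% of all genes tested had a larger and 7.77% a smaller value at P3 (median 0.02). Pcdhac2 differed by 1.74 ± 0.38 (adjusted p = 0.00751), Pcdha5 by 1.88 ± 0.44 (adjusted p = 0.0105) and Pcdhgc3 by -1.09 ± 0.24 (adjusted p = 0.0072), and these 3 passed under 24 of 25 alternatives. Pcdha3, Pcdha6, Pcdha9 and Pcdhb3 differed by 1.56, 1.67, 1.41 and 1.11 and lost the call under several. Brn3a cells were sampled at P3 only, so in these values age and line cannot be told apart. In the fit of the Brn3b line alone no member passed, 2 had an unadjusted p under 0.05 (3.57% of members, 18.7% of all genes), and 0.521% of all genes were called larger and 0.37% smaller at P3. Pcdhac2 then differed by 0.79 ± 0.42 (adjusted p = 0.338), Pcdha5 by 0.89 ± 0.56 (adjusted p = 0.419) and Pcdhgc3 by -0.91 ± 0.26 (adjusted p = 0.119), and the alpha median was 0.13. Set against the SN library of the same genotype, the alpha sum of the Brn3b line was 2.74-fold higher in HET and 1.27-fold in KO at E15, beside 3.19-fold and 1.52-fold at P3, each on 1 SN library.

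Among the AP-positive groups at P3, alpha protocadherin RNA stood lowest in the Brn3b knockout. The alpha sum was 364 and 548 CPM in Brn3b HET and 166 and 192 CPM in Brn3b KO, a 2.55-fold lower mean. The beta sum was 335 and 378 against 313 and 309 CPM, and the gamma sum 464 and 576 against 425 and 432 CPM; neither overlapped, with ratios of 1.15 and 1.21. All 14 alpha genes had negative log2 fold changes (median -1.3), but 4 fell and none rose. No beta (median -0.13) or gamma gene (median -0.54) passed the test in either direction, and over all genes 0.264% were called higher and 3.15% lower (median 0.01).

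Pcdha3 stood at 32.1 and 44.3 CPM in HET and at 10.9 and 12.3 CPM in KO, and fell by 1.71 ± 0.28 (adjusted p = 0.0197). Pcdha6 stood at 31.3 and 39.6 against 9.52 and 10.9 CPM and fell by 1.79 ± 0.35 (adjusted p = 0.0305). Pcdha7 stood at 33.7 and 36.6 against 12.2 and 19.3 CPM and fell by 1.15 ± 0.24 (adjusted p = 0.0371). Pcdha12 stood at 19.3 and 27.5 against 8.76 and 9.6 CPM and fell by 1.34 ± 0.31 (adjusted p = 0.0485). In each of these alternate alpha genes both KO libraries lay below both HET libraries.

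Among C-type genes none passed the test. Pcdhac1 stood at 20.1 and 30.4 against 6.79 and 8.57 CPM (-1.71 ± 0.41, adjusted p = 0.0542). Pcdhac2 stood at 96.7 and 156 against 54.0 and 58.2 CPM (-1.16 ± 0.32, adjusted p = 0.0861). Pcdhgc4 stood at 72.6 and 116 against 36.0 and 42.8 CPM (-1.25 ± 0.32, adjusted p = 0.0697), and Pcdhgc5 at 3.73 and 6.69 against 1.97 and 2.16 CPM (-1.32 ± 0.34, adjusted p = 0.0707). These 4 genes had negative log2 fold changes, whereas Pcdhgc3 went the other way, 110 and 102 against 153 and 135 CPM (0.45 ± 0.18, adjusted p = 0.218).

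The 4 calls depended on the libraries and on the test. Leaving out HET library 2, KO library 1 or KO library 2 left no member called, and leaving out HET library 1 gave 8; a group then has 1 library and its spread is taken from the others. The same 3 omissions left 0 higher and 1 or 2 lower calls in the whole table. The alpha median stayed between -1.63 and -0.99 through all of these. DESeq2 called 15 members lower, 26.8% of them against 7.43% of all genes. A fit of the compared groups alone called 0 members and 0 genes of the whole table.

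RGC markers fell beside the alpha genes, 13 of 18 with none rising (median -1.58; 1999 and 2302 CPM in KO, 4573 and 6527 CPM in HET). So did 10 of 14 microglia and macrophage markers (median -1.03; 977 to 1295 against 2124 to 2519 CPM). Progenitor marker sums were 1423 and 2838 CPM in KO and 1402 and 1100 CPM in HET, with no marker called. Their part in the alpha values was not tested.

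**Figure D3:**
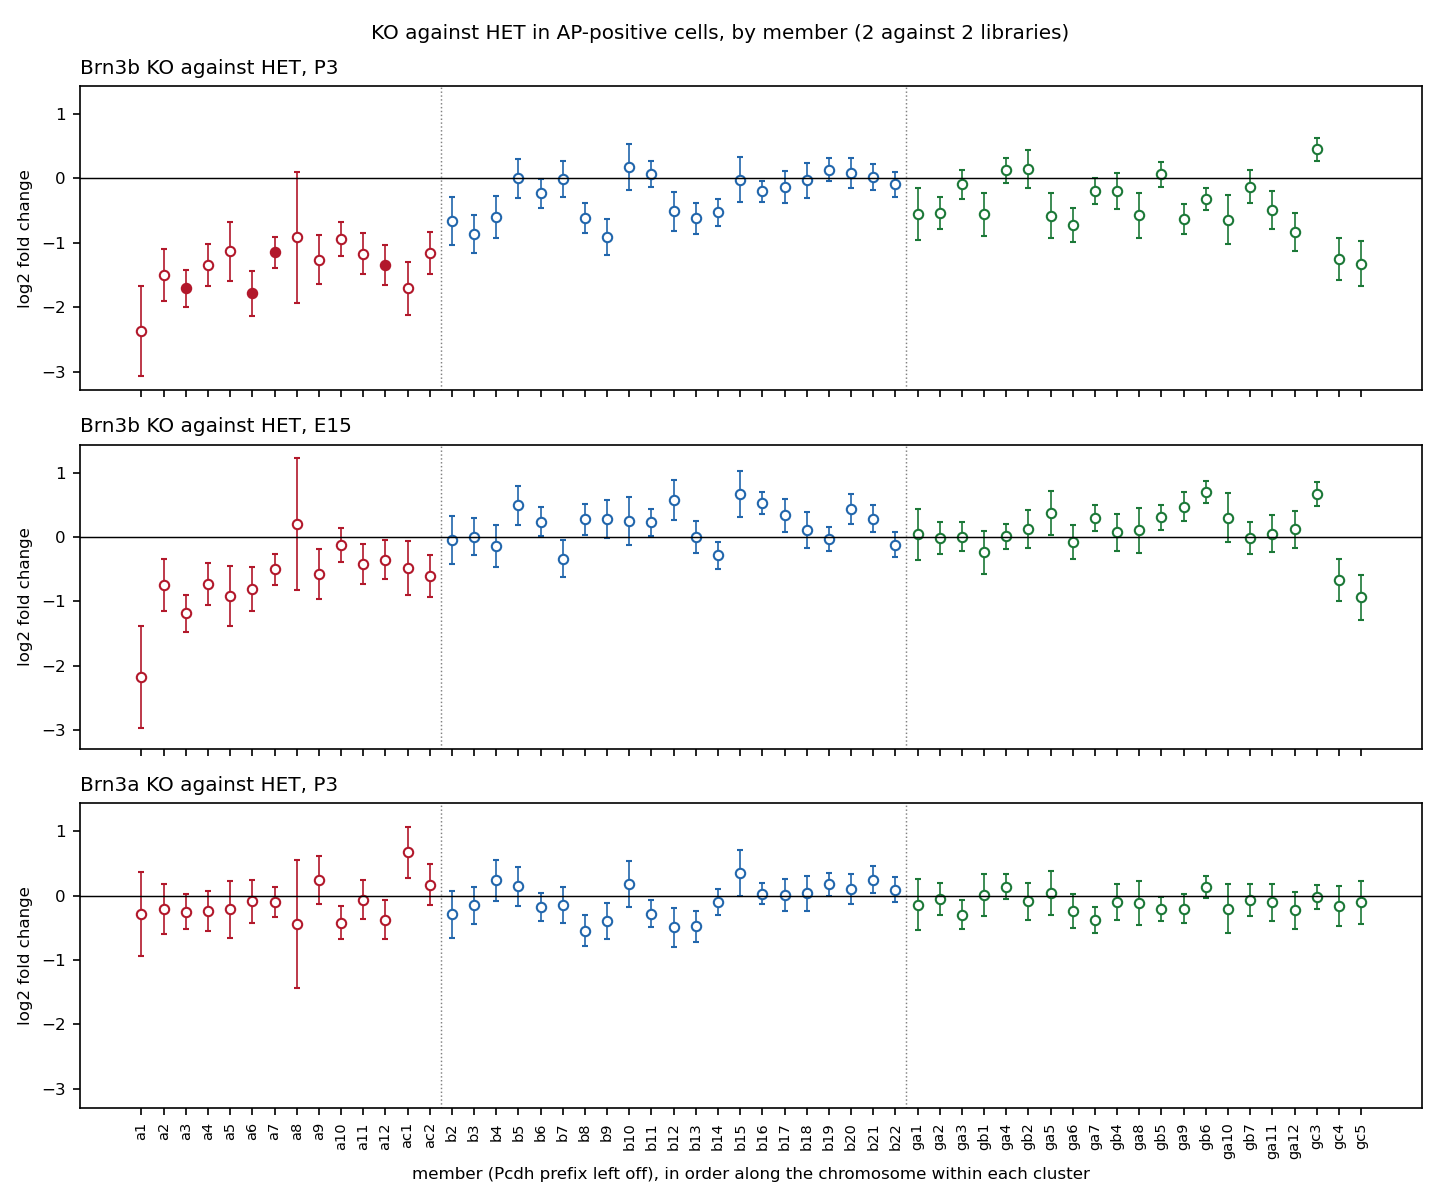
Log2 fold change of knockout over heterozygous AP-positive cells for each tested gene, for Brn3a at P3 and Brn3b at P3 and E15 (error bars are standard errors); filled points passed an adjusted p of 0.05. The 14 alpha genes lie between -2.38 and -0.91 for Brn3b at P3, and no gene passed for Brn3a or for Brn3b at E15.

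Loss of Brn3b at E15 gave no call among the 56 genes, with 0.666% of all genes called higher and 1.18% lower (median -0.03). The alpha sum stood at 218 and 134 CPM in HET and 133 and 97.7 CPM in KO, 1.52-fold lower in KO without overlap, and 13 of 14 alpha genes were negative (median -0.59). Beta and gamma medians were 0.24 and 0.07, and both sums overlapped. The C-type genes again differed in sign: Pcdhgc3 stood at 97.5 and 81.2 CPM in HET and 155 and 129 CPM in KO (0.67 ± 0.18, adjusted p = 0.13), and Pcdhgc5 at 4.18 and 3.91 against 1.74 and 2.47 CPM (-0.94 ± 0.34, adjusted p = 0.288). At an unadjusted p under 0.05 there were 7 members by edgeR, 12.5% of them against 11.7% of all genes, and DESeq2 called 2 higher and 1 lower (1.83% and 2.92% of all genes). RGC markers fell here too, 5 of 18.

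Whether the Brn3b effect differed between the ages was tested directly. None of the 56 genes passed, against 0.006% of all genes higher and 0.186% lower, with 8 members at an unadjusted p under 0.05 (14.3%, against 11.8% of all genes) and 1 called lower by DESeq2 (1.48% of all genes). The median differences were -0.72 for alpha, -0.47 for beta and -0.51 for gamma, against 0.02 for all genes. The call at P3 and its lack at E15 thus do not show a difference between the ages.

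In Brn3a knockout cells at P3 the clusters stayed near the heterozygous level. The alpha sum was 794 and 739 CPM in HET and 859 and 630 CPM in KO, the beta sum 418 and 357 against 392 and 352 CPM, and the gamma sum 780 and 690 against 787 and 560 CPM, all overlapping. No member passed edgeR's test, with 1 at an unadjusted p under 0.05 (1.79%, against 2.59% of all genes) and 0 called by DESeq2. Medians were -0.21 for alpha, 0.01 for beta and -0.11 for gamma. This comparison called hardly any gene, 0.012% higher and 0.006% lower. The largest shift among C-type genes was that of Pcdhac1, 28.6 and 29.5 CPM in HET and 51.2 and 40.6 CPM in KO (0.67 ± 0.40, adjusted p = 1), without overlap.

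The 2 heterozygous groups at P3 were also set against each other. Alpha sums were 364 and 548 CPM in Brn3b HET and 794 and 739 CPM in Brn3a HET, 1.68-fold lower in Brn3b HET without overlap. All 14 alpha genes were negative (median -0.77), as were 20 of 21 gamma genes (median -0.54) and 15 of 21 beta genes (median -0.17). No member was called by edgeR, with 2.03% of all genes higher and 1.82% lower (median 0.01). At an unadjusted p under 0.05 there were 19 members, 33.9% of them against 28.7% of all genes. DESeq2 called 1 member higher and 11 lower (8.66% and 9.49% of all genes), and the fit of the compared groups alone 12 lower (9.64% of all genes). RGC marker sums were 4573 and 6527 CPM against 10969 and 10196 CPM, and their part was not tested. This comparison shares Brn3b HET and Brn3a HET libraries with the knockout comparisons.

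Between E15 and P3 alpha and beta genes rose in Brn3b HET cells while the alternate gamma genes did not. The alpha sum went from 218 and 134 to 364 and 548 CPM (2.60-fold) and the beta sum from 212 and 156 to 335 and 378 CPM (1.94-fold), neither overlapping. The gamma sum was 495 and 374 at E15 and 464 and 576 CPM at P3, with overlap. Of the single genes 9 of 14 alpha (median 1.36), 13 of 21 beta (median 1.04) and 1 of 21 gamma genes (median -0.02) rose and none fell, against 16.6% of all genes higher and 12.3% lower (median 0.01).

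Pcdhb9 rose from 3.45 and 2.06 CPM to 12.8 and 17.1 CPM (2.45 ± 0.30, adjusted p = 0.000488). Pcdhb16 went from 16.1 and 12.9 to 35.5 and 39.4 CPM (1.38 ± 0.17, adjusted p = 0.000481), and Pcdhb8 and Pcdhb14 rose by 1.70 ± 0.24 and 1.54 ± 0.21. The C-type gene Pcdhac2 went from 37.6 and 26.2 to 96.7 and 156 CPM (1.99 ± 0.33, adjusted p = 0.00222). All of these separated the 2 ages in every library.

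Pcdhac1 rose by 2.01 ± 0.42, from 9.10 and 3.46 to 20.1 and 30.4 CPM, and the alternate genes Pcdha4, Pcdha3, Pcdha6 and Pcdha2 by 1.57, 1.24, 1.40 and 1.61. Pcdhgc4, the 1 gamma gene that rose, went from 32.9 and 17.8 to 72.6 and 116 CPM (1.90 ± 0.33, adjusted p = 0.00271). Pcdhgc3 (0.25 ± 0.18, adjusted p = 0.326) and Pcdhgc5 (0.37 ± 0.34, adjusted p = 0.44) did not pass. Without Brn3b HET library 2 of P3 the members called were 10, not 23, and without library 2 of E15 15. Markers moved with age as well: 13 of 14 microglia markers rose (727 and 952 CPM in sum at E15, 2124 and 2519 at P3), and of 18 RGC markers 3 rose and 8 fell (8128 and 13728 against 4573 and 6527 CPM). Of 11 photoreceptor markers 9 rose (357 and 485 against 3238 and 4503 CPM, with Rcvrn at 0 in both E15 libraries), of 12 amacrine markers 8 rose and 2 fell, of 10 vascular markers 7 rose, and of 16 progenitor markers 1 rose and 7 fell. Their part was not tested.

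In Brn3b KO cells alpha and beta sums also stood higher at P3, and the gamma sum lower. The alpha sum went from 133 and 97.7 to 166 and 192 CPM (1.55-fold), the beta sum from 220 and 196 to 313 and 309 CPM (1.5-fold) and the gamma sum from 555 and 471 down to 425 and 432 CPM (0.835-fold), none overlapping. Of alpha genes 2 rose (median 0.70), of beta genes 7 rose (median 0.50), and of gamma genes 1 rose and 6 fell (median -0.43), against 14.4% of all genes higher and 11.1% lower (median 0.03).

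Pcdhac2 rose by 1.44 ± 0.33, from 27.5 and 14.5 to 54.0 and 58.2 CPM (adjusted p = 0.0109), and Pcdhgc4 by 1.32 ± 0.33, from 18.5 and 13.6 to 36.0 and 42.8 CPM (adjusted p = 0.0159). Pcdha1, the first alpha gene, rose by 2.52 ± 0.79 from 0.856 and 0.0306 CPM, levels so low that this fold rests on few reads. The beta genes Pcdhb14, Pcdhb11, Pcdhb9 and Pcdhb16 rose by 1.3, 1.09, 1.25 and 0.65. The alternate gamma genes Pcdhga12, Pcdhgb5, Pcdhga9 and Pcdhgb6 fell by 1.24, 0.73, 0.82 and 0.56. Each of the last 4 lost its call under at least 3 of 10 alternatives, and leaving out KO library 1 or 2 of P3 or 1 or 2 of E15 gave 7, 5, 9 and 2 members in place of 16. The difference in age effect between KO and HET is the same quantity as the difference of the Brn3b effect between ages given above, for which no member passed. Of 11 photoreceptor markers 10 rose (426 and 453 CPM in sum at E15, 3991 and 5875 at P3), of 10 vascular markers 7 rose (107 and 141 against 237 and 599 CPM, with Kcnj8 at 0 in both E15 libraries), and of 18 RGC markers 3 rose and 10 fell (8350 and 9626 against 1999 and 2302 CPM). Of 12 amacrine markers 7 rose and 3 fell, and 6 of 14 microglia markers rose. Progenitor and Mueller glia marker sums overlapped, with 1996 and 3262 CPM at E15 and 1423 and 2838 CPM at P3. The part of these markers was not tested.

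**Figure D4:**
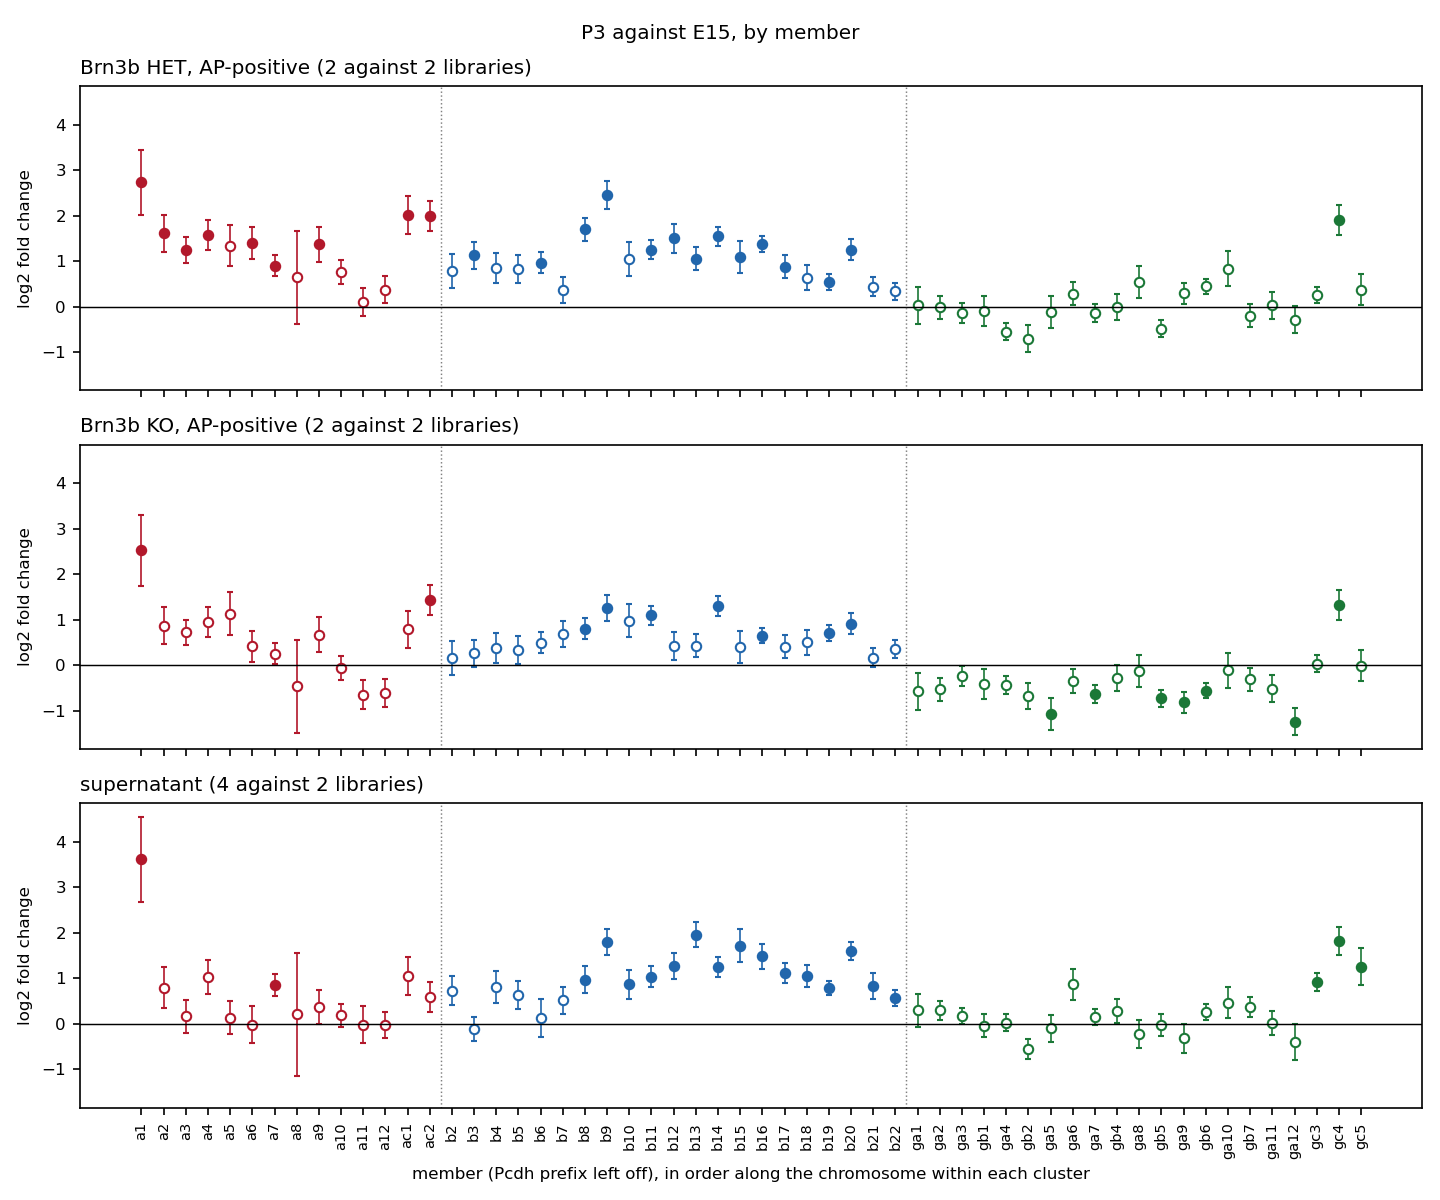
Log2 fold change of P3 over E15 for each tested gene in Brn3b HET, Brn3b KO and SN cells (error bars are standard errors); filled points passed an adjusted p of 0.05. The beta genes have medians of 1.04, 0.50 and 0.97 in the 3 cell populations, and the gamma genes of -0.02, -0.43 and 0.18.

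In supernatant cells 15 beta genes were higher at P3 than at E15, beside 2 alpha and 3 gamma genes. The SN libraries of P3 came from both lines and those of E15 from the Brn3b line only. In these pooled values age and line therefore cannot be told apart. The beta sum was 116 and 159 CPM at E15 and 259, 243, 273 and 293 CPM at P3, a 1.94-fold ratio without overlap, the gamma sum 255 and 379 against 388, 435, 468 and 422 CPM (1.35-fold, no overlap), and the alpha sum overlapped (64.2 and 90.8 against 77.8 to 143 CPM). The median log2 fold change was 0.97 for beta, 0.29 for alpha and 0.18 for gamma genes, and no member fell, against 15.6% of all genes higher and 17.5% lower (median -0.02). Leaving out the Brn3b HET SN library of E15 gave 13 members in place of 20. Of 18 RGC markers 2 rose and 13 fell (3053 and 4396 CPM in sum at E15, 1003 to 1780 at P3), of 11 photoreceptor markers 9 rose and 1 fell (1009 and 1139 against 3215 to 3763 CPM), of 12 amacrine markers 7 rose and 2 fell, of 8 astrocyte markers 4 rose and of 10 vascular markers 4 rose and 1 fell. Progenitor and Mueller glia marker sums were 7223 and 6115 CPM at E15 and 3343 to 4381 CPM at P3. The part of these markers was not tested.

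Pcdhb20 rose from 5.16 and 6.81 CPM to 18.2, 17.5, 18.6 and 18.3 CPM (1.60 ± 0.20, adjusted p = 7.6e-05), with a very narrow spread at P3. Pcdhb13 rose from 0.921 and 1.62 to 4.20, 4.71, 6.19 and 4.68 CPM (1.96 ± 0.28, adjusted p = 0.0002), and Pcdhb9 and Pcdhb14 by 1.80 and 1.25. All of these beta genes passed under each of 13 alternatives, including the fit of the Brn3b line alone, chosen after seeing the data. The 3 gamma genes that rose were the C-type genes Pcdhgc4 (9.85 to 34.9 CPM in the mean, 1.83 ± 0.31), Pcdhgc3 (72.1 to 137 CPM, 0.93 ± 0.20) and Pcdhgc5 (0.955 to 2.28 CPM, 1.25 ± 0.41). Pcdhgc4 and Pcdhgc3 passed under all 13 alternatives. The low gene Pcdhgc5 lost its call under 6 of them, with an adjusted p of 0.212 in the Brn3b line alone. Pcdhac2 (0.59 ± 0.32, adjusted p = 0.176) and Pcdhac1 (1.04 ± 0.42, adjusted p = 0.0708) did not pass. The alpha genes that did were Pcdha1 (3.61 ± 0.93), listed at 0 and 0.425 CPM at E15 and so of uncertain fold, and Pcdha7 (0.85 ± 0.24).

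With age the C-type genes took a larger part of the gamma sum. Their share was 27.2% to 31.5% in the 4 AP-positive libraries of E15 and 36.1% to 44.8% in the 8 of P3, and 24.3% and 27.4% against 38.1% to 43.1% in SN. Within alpha it was 18.4% to 24.8% against 27.6% to 36.5% in AP-positive cells, without overlap, and 26.5% to 27.8% against 28.4% to 31.3% in SN. The P3 ranges include the Brn3a line. In the Brn3b line alone the P3 gamma share was 39.0% to 44.8% in AP-positive cells and 41.1% and 43.1% in SN. Its P3 alpha share was 32.1% to 36.5% in AP-positive cells and 31.3% and 31.2% in SN. In the brain the gamma share was 45.6% to 55.2%. The alpha share was 41.3% to 45.6% in the LGN and 21.1% to 27.8% in the SC. How reads of the constant exons were split between members enters these shares.

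**Figure D5:**
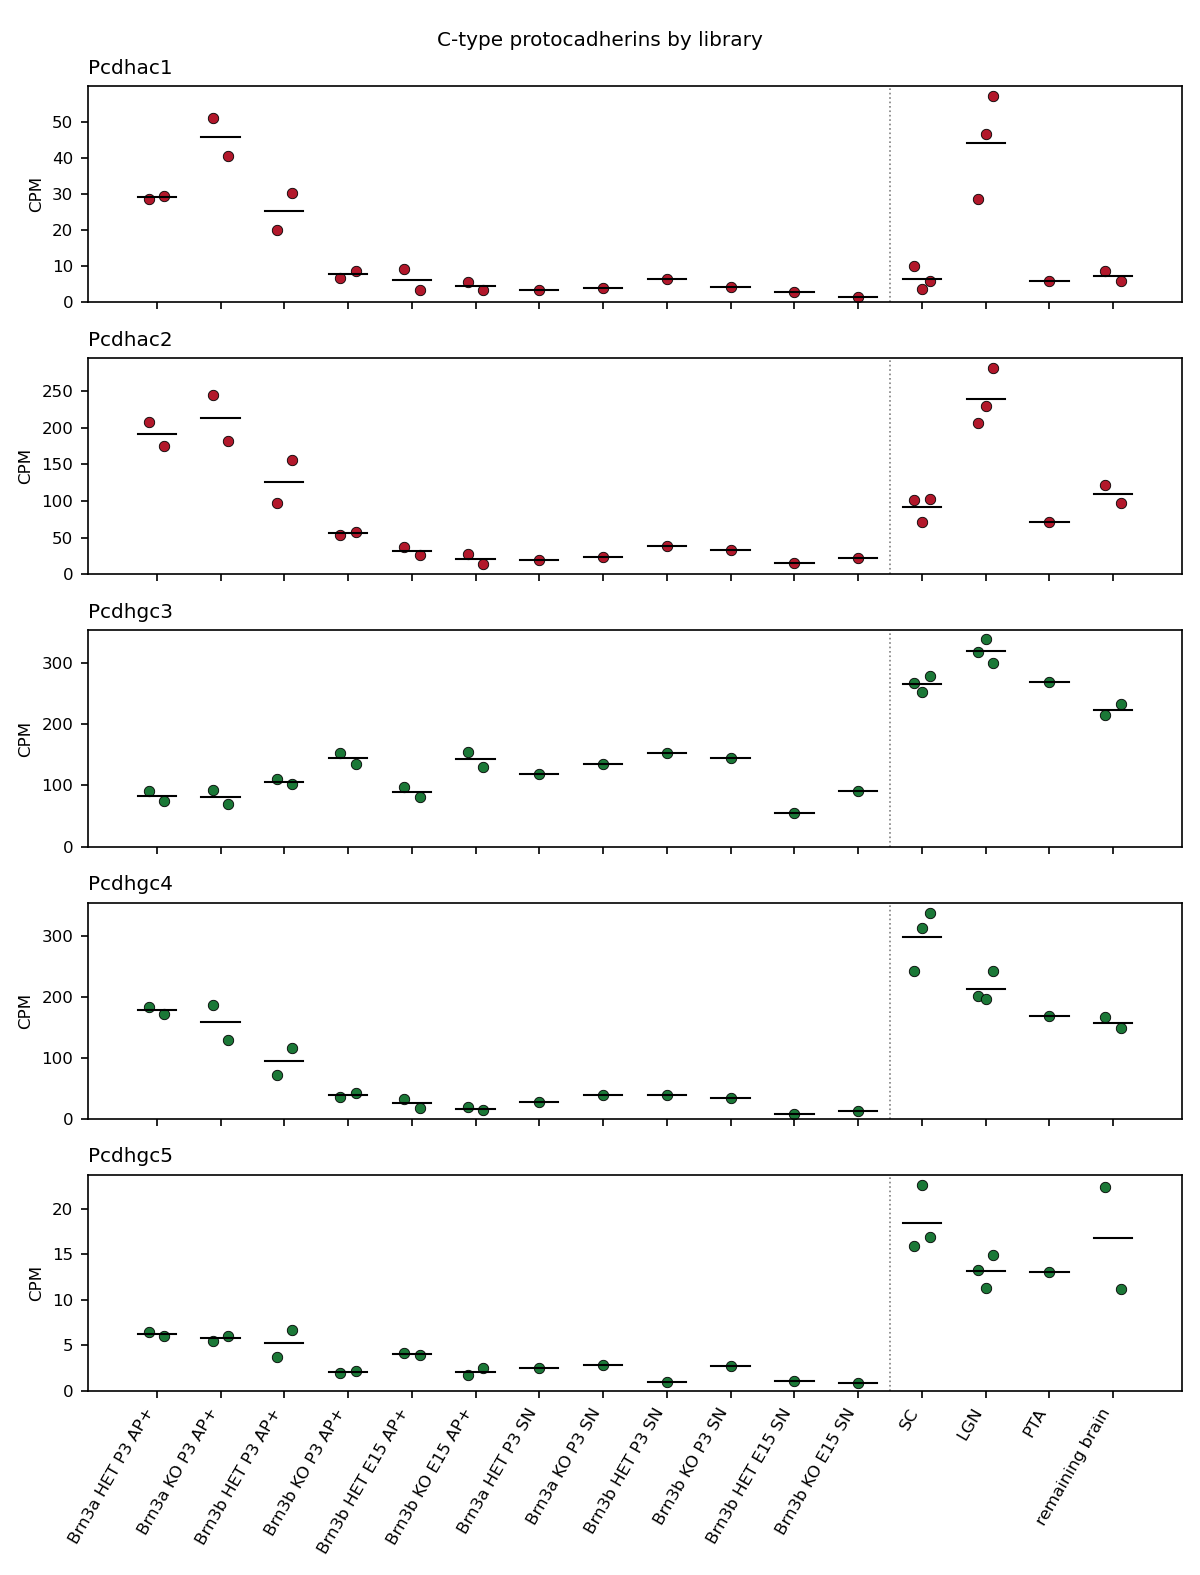
Level of each of the 5 C-type genes (CPM, y axis) in every library by group (x axis), with a panel per gene. Points are libraries, black bars are group means and the dotted line separates retina from brain. Pcdhac1 stood at 28.5 to 57.2 CPM in the LGN and at 3.57 to 10.1 CPM in the SC.

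Of the 2 main targets of RGC axons, the LGN carried far more of the alpha C-type genes than the SC. Pcdhac1 stood at 10.1, 3.57 and 5.76 CPM in the SC and 28.5, 46.7 and 57.2 CPM in the LGN (-2.76 ± 0.37, adjusted p = 0.00159). Pcdhac2 stood at 101, 70.7 and 103 CPM against 207, 229 and 281 CPM (-1.38 ± 0.17, adjusted p = 0.00102). Neither overlapped, and both calls passed under each of 12 alternatives.

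Pcdha12, the last alternate alpha gene of the cluster, was also lower in the SC, 27.1, 23.4 and 27.4 against 39.9, 43.1 and 59.2 CPM (-0.87 ± 0.16, adjusted p = 0.00842). These were the only 3 alpha genes called, none was higher, and the alpha median was -0.34. The alpha sum was 399, 353 and 429 CPM in the SC and 569, 604 and 756 CPM in the LGN, 1.63-fold lower in the SC without overlap. In the gamma cluster Pcdhga1 (18.3 against 10.6 CPM in the mean, 0.78 ± 0.18) and Pcdhgb2 (15.5 against 9.08 CPM, 0.78 ± 0.18) were higher in the SC, and no gene was lower (median 0.24). Pcdhga1 lost its call under 3 and Pcdhgb2 under 5 of 12 alternatives, with adjusted p of up to 0.121 and 0.106. No beta gene passed (median 0.20), and over all genes 4.41% were called higher and 5.78% lower (median 0.02).

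The gamma C-type genes did not pass between SC and LGN. Pcdhgc4 stood at 243, 314 and 339 CPM in the SC and 202, 196 and 242 CPM in the LGN (0.49 ± 0.14, adjusted p = 0.0553). Pcdhgc3 stood at 267, 253 and 278 against 317, 339 and 300 CPM (-0.26 ± 0.09, adjusted p = 0.0964), and Pcdhgc5 at 15.9, 22.7 and 16.9 against 13.2, 11.3 and 15.0 CPM (0.49 ± 0.26, adjusted p = 0.284).

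Choroid plexus and meningeal markers differed between these libraries, with 2 of 8 lower in the SC; their sum was 247 to 513 CPM in the SC and 1532, 524 and 5872 CPM in the LGN. Without LGN library 3 Pcdhac1 stood at -2.53 (adjusted p = 0.00592) and Pcdhac2 at -1.25 (adjusted p = 0.00363). Of the 18 RGC markers, which other neurons share, 7 were lower and 1 higher in the SC (5011 to 5848 CPM in the SC, 7334 to 8655 CPM in the LGN), and their part was not tested.

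Against the remaining brain 3 C-type genes were higher in the LGN. Pcdhac1 (44.1 against 7.19 CPM in the mean, 2.62 ± 0.44, adjusted p = 0.00516), Pcdhac2 (239 against 110 CPM, 1.12 ± 0.20, adjusted p = 0.00652) and Pcdhgc3 (318 against 223 CPM, 0.51 ± 0.10, adjusted p = 0.0106) were higher in the LGN, none overlapping. Pcdhb5 (-0.91 ± 0.25, adjusted p = 0.0463) and Pcdhga1 (-0.85 ± 0.20, adjusted p = 0.0264) were lower. They lost their calls under 6 and 3 of 11 alternatives. Of the 56 members 3 were higher and 2 lower, against 5.76% of all genes higher and 5.17% lower. Medians were 0.32 for alpha, 0.21 for beta and 0.15 for gamma, against -0.02. Without remaining brain library 2, 1 member was called and the adjusted p of Pcdhac1 and Pcdhac2 became 0.0531 and 0.0606; without library 1, 8 were called. Choroid plexus and meningeal markers were higher in the LGN for 3 of 8 (1532, 524 and 5872 CPM in sum, against 341 and 576 CPM), RGC markers higher for 4 and lower for 3 of 18 (7334 to 8655 against 6089 and 6198 CPM), serotonergic markers lower for 2 of 5 (63.8 to 116 against 36.4 and 48.9 CPM in sum, with Fev at 0 in the LGN) and oligodendrocyte markers lower for 3 of 8. Their part was not tested. This comparison and the next share the remaining brain libraries, and this and the former share the LGN libraries.

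In the SC Pcdhgc4 stood above the remaining brain, 243, 314 and 339 against 167 and 149 CPM (0.92 ± 0.16, adjusted p = 0.00874). The LGN libraries, at 202, 196 and 242 CPM, also lay above both remaining brain libraries, without a call. Pcdha2 (0.85 ± 0.19, adjusted p = 0.0262) and Pcdhga9 (1.06 ± 0.25, adjusted p = 0.0365) were also higher in the SC and no member was lower, against 3.19% of all genes higher and 3.75% lower. Pcdhac1 (-0.15 ± 0.43, adjusted p = 0.891) and Pcdhac2 (-0.26 ± 0.19, adjusted p = 0.49) overlapped with the remaining brain and did not pass. Choroid plexus and meningeal markers were higher in the SC for 2 of 8, RGC markers higher for 1 and lower for 3 of 18, and serotonergic markers lower for 2 of 5, and their part was not tested. Without remaining brain library 2 none of the 56 was called, without SC library 2 or 3 it was 1, and without remaining brain library 1 it was 5. The 1 PTA library, in no test, stood at 5.79 CPM for Pcdhac1, 71.9 for Pcdhac2 and 169 for Pcdhgc4. Its Pcdhac1 level lay near both the SC and the remaining brain (8.53 and 5.86 CPM). Its Pcdhac2 level lay within the SC range and its Pcdhgc4 level near the remaining brain.

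Of 24 genes for the chromatin factors that act on these clusters, most were lower in AP-positive cells. At P3 2 rose and 20 fell against SN (median -0.52), while 27.3% of all genes were called higher and 27.7% lower. Ctcf, which binds the promoters and enhancers, fell by 0.79 ± 0.10 (155 against 253 CPM in the mean, adjusted p = 2.05e-05), the cohesin subunit gene Smc3 by 0.71 ± 0.10, the DNA methyltransferase gene Dnmt3b by 1.37 ± 0.12 and Trim28, a partner in silencing by H3K9 methylation, by 0.60 ± 0.06. At E15 3 rose and 11 fell (median -0.34), while 13.4% of all genes were called higher and 13% lower. Rad21 and Smc1a, both cohesin, fell by 0.72 and 0.59 and Ctcf by 0.65, and Mau2, a cohesin loader, rose by 0.48. Progenitor and Mueller glia markers also fell in AP-positive cells at both ages, and their part in these values was not tested.

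Dnmt3b was the 1 gene of this list called after loss of Brn3b, 10.9 against 5.61 CPM at P3 (0.97 ± 0.18, adjusted p = 0.0271) and 60.6 against 33.1 CPM at E15 (0.87 ± 0.18, adjusted p = 0.0399). Over all genes 0.264% were called higher and 3.15% lower at P3, and 0.666% and 1.18% at E15. Dnmt3b fell from E15 to P3 in Brn3b HET by 2.55 ± 0.19 and in SN by 1.24 ± 0.16, where 12.3% and 17.5% of all genes were called lower. Between Brn3b HET and Brn3a HET 4 genes were higher in Brn3b HET, Zfp143 by 1.24, Wapl by 0.97, Nipbl by 0.85 and Smc3 by 0.80. Over all genes 2.03% were called higher and 1.82% lower there. Between SC and LGN Tet2 was higher in the SC by 0.85 and Wiz lower by 0.39, while 4.41% of all genes were called higher and 5.78% lower.

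Among 21 genes of proteins that act with the protocadherins in the cell, 12 rose and 5 fell in AP-positive cells at P3 (median 0.28). Over all genes tested, 27.3% were called higher and 27.7% lower. Cyfip1, of the WAVE complex that builds actin branches, rose by 1.54 ± 0.11 (178 against 59.7 CPM), and Wasf2 of the same complex by 1.12 ± 0.14. The 2 kinases that bind the shared cytoplasmic end went opposite ways: Ptk2b rose by 4.13 ± 0.49 (18.4 against 0.908 CPM) and Ptk2 fell by 0.52 ± 0.07. At E15 7 rose and 2 fell, against 13.4% of all genes higher and 13% lower. After loss of Brn3b at P3 Cyfip1 fell by 0.68 ± 0.15 (adjusted p = 0.0449) and no other gene of the list was called. Over all genes 0.264% were called higher and 3.15% lower. Microglia and macrophage markers also rose in AP-positive cells at both ages, and most of them fell after loss of Brn3b at P3. Their part in the values of these genes was not tested. In the brain Ptk2b fell below the remaining brain in the SC by 4.85 ± 0.22 and in the LGN by 3.03 ± 0.20, and in the SC against the LGN by 1.82 ± 0.21, where Ret and Wasf1 were lower by 1.17 and 0.44.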

How the data were processed

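Estimated counts per transcript were deposited by the authors for 88198 transcripts in 27 libraries (single-end reads of 76 bases for retina, paired reads of 125 for brain, stranded). Per the submitters' processing notes, Trimmomatic 0.32, Bowtie2 2.2.1, eXpress 1.3.1 and GRCm38.p3 were used; their roles are not given in the sources used here. Transcripts were summed per gene, rounded and tested with edgeR 4.0.16 (R 4.3.3, TMM, filterByExpr with a minimum count of 10, quasi-likelihood F-test, Benjamini-Hochberg) in 3 fits: 18 retinal libraries (16954 genes), 12 AP-positive (16673) and 9 brain (15288). The deposited table also gives the GC percent of each transcript, with no statement of how the authors computed it, and it was not used. CPM uses TMM-scaled library sizes, and TPM the deposited lengths. The script was tested on simulated counts. All columns were mapped to samples. DESeq2 1.42.0, RLE scaling, no filter, protein-coding transcripts only, compared groups only, a replicate block and leaving out each library were alternatives, and a fit of the Brn3b line alone was added after seeing the data. Cluster sums, shares and TPM have no test. The members and the 13 gene lists (11 of cell markers, 2 of pathways) were chosen with earlier results of these data known.

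Named in each comparison were the 5 C-type genes, up to 4 other called genes per cluster and direction with the smallest adjusted p, the 3 genes per cluster with the highest mean TPM in each tissue, and up to 4 genes per other list; names outside this rule were chosen after their values were seen. Counts limit the precision of low genes, and intervals cover the spread between libraries. Read-through transcripts spanning the clusters, with at most 5.96 estimated counts in a library, were left out, and the gene listed as Pcdha10 keeps that name.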

Additional observations from a re-analysis of the deposited data

Results flagged for a closer look

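In the fit of all 18 retinal libraries the difference between AP-positive and SN cells was not the same at P3 as at E15 for 7 clustered protocadherins, by the test of the difference itself in edgeR. In the Brn3b line alone, the 1 line sampled at both ages and an alternative chosen after seeing the data, none of the 7 passed. In all 18 libraries it was larger at P3, on the log2 scale, by 1.88 for Pcdha5, 1.74 for Pcdhac2, 1.67 for Pcdha6, 1.56 for Pcdha3, 1.41 for Pcdha9 and 1.11 for Pcdhb3, with adjusted p of 0.0105, 0.00751, 0.029, 0.0262, 0.0415 and 0.0297. For Pcdhgc3 the value was -1.09 (adjusted p = 0.0072): the gene was lower in AP-positive cells at P3 and higher at E15. Pcdha5, Pcdhac2 and Pcdhgc3 passed in 24 of 25 alternatives, Pcdha3 in 20, Pcdha6 in 18, Pcdhb3 in 14 and Pcdha9 in 9. In the Brn3b line alone the values were 0.89 for Pcdha5, 0.79 for Pcdhac2, 0.40 for Pcdha6, 0.34 for Pcdha3, 0.40 for Pcdha9, 0.54 for Pcdhb3 and -0.91 for Pcdhgc3, with adjusted p of 0.419, 0.338, 0.655, 0.631, 0.726, 0.456 and 0.119. Without the Brn3b KO SN library of E15, Pcdha9 stood at 0.91 (adjusted p = 0.246) and Pcdhb3 at 0.85 (adjusted p = 0.139). Without the Brn3b HET SN library of E15, the adjusted p of Pcdha3 was 0.121 and that of Pcdha6 0.0921. The Brn3a groups exist at P3 only, so in the pooled values age and line cannot be told apart. Of 18 RGC markers, 8 had a larger difference at P3 too, and their part was not tested.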

How the results depend on the processing

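Estimated counts split between shared exons, 1 or 2 libraries a group and low counts limit what single genes show. Of the named values past the threshold, 1 changed direction: Pcdhb7 in AP-positive against SN at P3 stood at -0.049 (adjusted p = 0.919) in the Brn3b line alone, an alternative chosen after seeing the data. The labels do not say that a replicate number marks 1 animal, and correlations of same-numbered libraries ran from -0.116 to 0.171 in the AP-positive cells and from -0.0235 to 0.218 in the brain, 4 of 7 of the latter over 0.1. The numbers were therefore not taken to pair libraries, though 7 of 8 brain libraries correlated best with their own number, as a hint. The 8 of 12 AP-positive libraries that did so add no such hint. With 2 libraries a group, deviations from the group mean mirror each other and both libraries give the same answer. Members called, main value first, were for SC against LGN 5, with 9 under the replicate block, 11 with DESeq2, 9 with only the compared groups and 2 with only the mouse-spelled names, an alternative chosen after seeing the data. With those names SC against remaining brain gave 1 (main 3), LGN against remaining brain 2 (main 5) and AP-positive against SN at P3 20 (main 32), by construction, since fewer genes count. Brn3b KO against HET at P3 (4) gave 10 without the filter, 2 under the replicate block, 15 with DESeq2 and 0 with only the compared groups, which called 0 genes in all. At E15 (0) it gave 1 without the filter, 1 under the replicate block and 3 with DESeq2, and the difference between the ages (0) gave 1 with DESeq2. Brn3b HET against Brn3a HET (0) gave 3 without the filter, 1 with RLE scaling, 12 with DESeq2 and 12 with only the compared groups, where lower calls made up 3.07%, 2.41%, 9.49% and 9.64% of all genes. With only the compared groups Brn3b HET at P3 against E15 gave 14 (main 23) and AP-positive against SN at E15 2 (main 21). In the Brn3b line alone AP-positive against SN gave 6 at P3 (main 32) and the difference between ages 0 (main 7). Leaving out a library gave 4 to 6 for SC against LGN, 0 to 5 for SC and 1 to 8 for LGN against remaining brain, 0 to 8 for Brn3b KO at P3 and 0 to 2 at E15, 10 to 25 for HET and 2 to 9 for KO at P3 against E15, 25 to 34 and 0 to 22 for AP-positive against SN at P3 and E15, 13 to 23 for SN by age and 3 to 9 for the AP-positive against SN difference between ages. The beta sum in Brn3b KO at P3 over E15 was 0.68 on the log2 scale without TMM scaling and 0.58 with it. Where no construction is named, the cause was not tested. The replicate block moved no other count by more than 1.5 times.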
